A study of Mus musculus with 13 samples.

Results

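The 10 genes Fos, Fosb, Jun, Junb, Atf3, Egr1, Nr4a1, Nr4a3, Myc and Ier3 are known as immediate early genes, and all but Ier3 encode transcription factors. They were taken by symbol from the 55471 Ensembl genes of the deposited count table, where each symbol had 1 gene ID. Whole mouse hearts of 3 groups were profiled by bulk RNA-seq. R502W mavacamten (4 libraries) were hearts of R502W mice whose drinking water supplied mavacamten, a small-molecule inhibitor of cardiac myosin, at 2.5 mg/kg/day for a course of 21 weeks. R502W control (4 libraries) were hearts of R502W mice without the drug, and WT control (5 libraries) were hearts of wild-type mice without it. R502W is a substitution in cardiac myosin-binding protein C, a thick-filament protein of the sarcomere, so both R502W groups carry it. Whether the mice carried 1 or both mutant copies, their sex and the hour of collection are not known here. The design text put the mice at 24 weeks, while the extraction protocol spoke of hearts aged 3 and 18 weeks. Replicate numbers below are the sample numbers of the labels, which do not say that each library came from its own mouse, so p-values measure only the spread between these libraries.

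Immediate early genes are transcribed shortly after a cell receives a signal, with no need for newly made protein, because the factors that switch them on, such as SRF with ELK partners and CREB, are already present. Their RNAs are short-lived, so their level follows recent signals. Fos, Fosb, Jun, Junb and Atf3 encode basic leucine zipper proteins of the AP-1 and ATF families, Egr1 a zinc finger factor, Nr4a1 and Nr4a3 orphan nuclear receptors, and Myc a factor that promotes growth and ribosome production. Ier3 encodes a short stress-response protein that acts on survival signalling. In heart muscle these genes are known to respond to stretch, adrenergic stimulation and ischaemia.

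Libraries held 16001651 to 17520706 expected counts in R502W mavacamten, 15350622 to 19361103 in R502W control and 15420583 to 18218404 in WT control. All 10 genes passed the filter on low counts, as did 15000 genes in all. Heart muscle markers were abundant in every library, with 45400 to 63900 summed CPM over 5 cardiomyocyte genes in R502W mavacamten, 49600 to 56600 in R502W control and 33300 to 48000 in WT control. Airway or T cell precursor RNA passed a limit of 50 CPM, chosen after seeing the data, in 3 libraries. The airway gene Scgb1a1 reached 87.2 CPM in R502W mavacamten replicate 1, 349 CPM in WT control replicate 3 and 246 CPM in WT control replicate 2, which also had 94.0 CPM of the T cell precursor gene Rag1. In the other 10 libraries Scgb1a1 was at most 11.7 CPM and Rag1 at most 0.27 CPM. CPM are counts scaled to TMM-adjusted library sizes, and in bulk tissue a difference between fewer cells of a type and less RNA per cell cannot be told apart.

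R502W control hearts had more Fos and less Ier3 transcript than WT control hearts, and the remaining 8 genes did not pass the test. Fos was 4.30-fold higher and Ier3 stood at 0.711 of its WT level. Neither call was stable: that of Fos ended in 8 of the 13 fits that left out 1 library, and that of Ier3 in 4. In this comparison 1 of 10 genes was called higher and 1 lower at an edgeR adjusted p under 0.05, while 12.4% of all 15000 genes were called, 8.63% higher and 3.75% lower. The share called higher was near that of all genes. The 10 genes had a median log2 fold change of 0.93, against -0.01 over all genes tested, and 9 of the 10 estimates were above 0. Most of the 10 genes varied together between libraries (below), so these estimates are not independent readings. Libraries of 1 group differed from each other, shown next gene by gene.

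**Figure D1:**
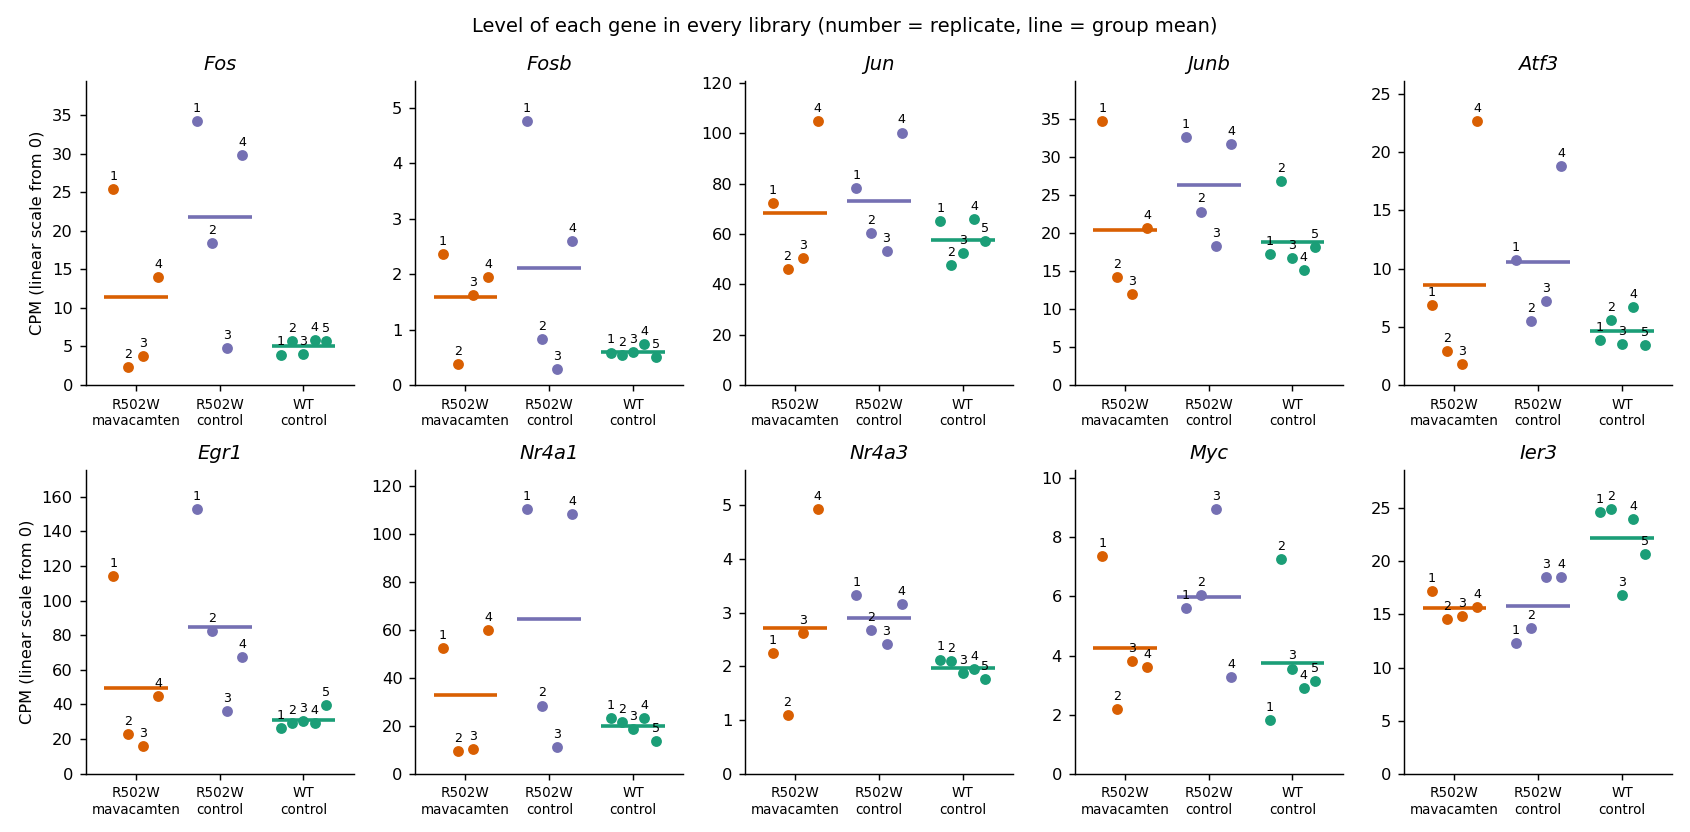
Level of the 10 genes in CPM (linear axes from 0) in every library of R502W mavacamten, R502W control and WT control; numbers are replicates and lines group means. Fos ran from 2.38 to 25.4 CPM in R502W mavacamten and from 4.78 to 34.3 CPM in R502W control, while the 5 WT control libraries sat between 3.96 and 5.88 CPM.

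Fos (ENSMUSG00000021250, chromosome 12, 85473890 to 85477273, plus strand, GRCm38) is the founding FOS protein, which binds DNA as a pair with a JUN protein. It stood at 25.4, 2.38, 3.82 and 14.1 CPM in R502W mavacamten replicates 1 to 4, at 34.3, 18.5, 4.78 and 29.8 CPM in R502W control replicates 1 to 4, and at 3.96, 5.76, 3.98, 5.88 and 5.67 CPM in WT control replicates 1 to 5. R502W control replicates 1, 2 and 4 lay above every WT control library, while replicate 3 lay among them. Of the treated hearts, replicates 1 and 4 lay above every WT control library and replicates 2 and 3 below every one. Means were 21.8 ± 13.2 CPM in R502W control (SD, n = 4) and 5.05 ± 0.988 CPM in WT control (SD, n = 5). On the log2 scale the difference was 2.11 ± 0.61 (SE), with an edgeR adjusted p of 0.0375. The call ended in 8 of the 13 fits that left out 1 library, those without R502W control replicates 1, 2 or 4 or without any 1 of the WT control replicates, with values from 1.81 to 2.44. Without the 3 libraries carrying RNA of other tissues it ended too (2.04 ± 0.67, edgeR adjusted p = 0.0866).

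Fosb (ENSMUSG00000003545, chromosome 7, 19302696 to 19310051, minus strand), a close relative of Fos, was scarce. It stood at 2.36, 0.386, 1.63 and 1.95 CPM in R502W mavacamten replicates 1 to 4, at 4.77, 0.834, 0.281 and 2.59 CPM in R502W control replicates 1 to 4, and between 0.504 and 0.735 CPM in the WT control libraries. WT control values rested on 8 to 14 counts per library, and R502W control replicate 3 on 5 counts. The highest and the lowest library of the whole series were both R502W control hearts, replicates 1 and 3. The log2 fold change of R502W control over WT control was 1.81 ± 0.65 (edgeR adjusted p = 0.0811), and DESeq2 gave it an adjusted p of 0.0436. It was also called without R502W control replicate 3 (2.18, edgeR adjusted p = 0.0368), and stood at 1.05 without R502W control replicate 1.

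Jun (ENSMUSG00000052684, chromosome 4, 95049034 to 95052222, minus strand) and Junb (ENSMUSG00000052837, chromosome 8, 84974484 to 84978718, minus strand) encode partners of the FOS proteins and varied less. Jun was at 72.1, 46.1, 50.4 and 105 CPM in R502W mavacamten, at 78.3, 60.5, 53.3 and 100.3 CPM in R502W control, and between 47.6 and 66.1 CPM in WT control. Junb was at 34.7, 14.2, 11.97 and 20.7 CPM in R502W mavacamten, at 32.6, 22.8, 18.2 and 31.6 CPM in R502W control, and between 15.1 and 26.8 CPM in WT control. The groups overlapped for both genes. R502W control over WT control gave 0.34 ± 0.23 for Jun (edgeR adjusted p = 0.348) and 0.48 ± 0.28 for Junb (edgeR adjusted p = 0.27) on the log2 scale.

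Atf3 (ENSMUSG00000026628, chromosome 1, 191170296 to 191218039, minus strand), a stress-induced factor that mostly represses its targets, stood at 6.86, 2.96, 1.84 and 22.7 CPM in R502W mavacamten, at 10.8, 5.5, 7.20 and 18.9 CPM in R502W control, and between 3.47 and 6.66 CPM in WT control. Replicate 4 was the highest library of each R502W group. R502W control over WT control was 1.19 ± 0.58 on the log2 scale (edgeR adjusted p = 0.194). The same 2 libraries led in Jun, and they were also the highest of the 8 R502W libraries in the inducible chaperone gene Hspa1a, at 41.5 CPM in R502W mavacamten replicate 4 and 23.6 CPM in R502W control replicate 4 against 3.03 to 9.21 CPM in the other 6. The clock gene Per1 was at 42.1 and 44.6 CPM in these 2 libraries and at 14.0 to 22.8 CPM in the other 6. In WT control, where Jun was at 47.6 to 66.1 CPM, Hspa1a was at 4.11 to 13.2 CPM and Per1 was higher than in any R502W library, at 64.3 to 88.6 CPM. The part of either in the levels of Atf3 and Jun was not tested.

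Egr1 (ENSMUSG00000038418, chromosome 18, 34859823 to 34864984, plus strand), which binds GC-rich promoters after growth factor and stretch signals, was at 114, 23.0, 15.8 and 44.8 CPM in R502W mavacamten, at 152.6, 82.5, 36.2 and 67.2 CPM in R502W control, and between 26.2 and 39.8 CPM in WT control. Of the R502W control libraries 3 of 4 lay above every WT control library. Of the treated libraries 2 lay above and 2 below every WT control library. The log2 fold change of R502W control over WT control was 1.44 ± 0.49 (edgeR adjusted p = 0.0674). It was called when only the 2 groups entered the fit (1.44 ± 0.32, edgeR adjusted p = 0.0188) and without R502W mavacamten replicate 1 (1.41, edgeR adjusted p = 0.0275).

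Nr4a1 (ENSMUSG00000023034, chromosome 15, 101254269 to 101274795, plus strand) stood at 52.3, 9.65, 10.3 and 59.96 CPM in R502W mavacamten, at 110.3, 28.5, 11.3 and 108.3 CPM in R502W control, and between 13.5 and 23.2 CPM in WT control. In R502W control 3 libraries were above every WT control library and replicate 3 was below every one. The log2 fold change was 1.69 ± 0.63 (edgeR adjusted p = 0.0956). Nr4a3 (ENSMUSG00000028341, chromosome 4, 48045153 to 48086447, plus strand), its scarcer relative, stood at 2.25, 1.09, 2.62 and 4.92 CPM in R502W mavacamten, at 3.33, 2.67, 2.42 and 3.16 CPM in R502W control, and between 1.77 and 2.13 CPM in WT control, on 28 to 37 counts per WT library. Every R502W control library was above every WT control library, the 1 of 10 genes without overlap in that direction, while 12.3% of all genes tested had none. In the lower direction 0 of 10 genes were without overlap, against 5.45% of all genes. Its log2 fold change was 0.56 ± 0.32 (edgeR adjusted p = 0.26).

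Myc (ENSMUSG00000022346, chromosome 15, 61985391 to 61990374, plus strand) followed another order of libraries. It stood at 7.37, 2.19, 3.82 and 3.62 CPM in R502W mavacamten, at 5.62, 6.06, 8.95 and 3.26 CPM in R502W control, and at 1.83, 7.26, 3.56, 2.89 and 3.15 CPM in WT control. Its highest library was R502W control replicate 3, where Fosb was lowest, and the WT control library highest in Myc was replicate 2, the one with Rag1. R502W control over WT control gave 0.67 ± 0.40 (edgeR adjusted p = 0.29), and 1.02 without WT control replicate 2. The part of RNA from other tissues in that level was not tested.

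Ier3 (ENSMUSG00000003541, chromosome 17, 35821684 to 35822923, plus strand) ran the other way. It stood at 17.2, 14.6, 14.9 and 15.7 CPM in R502W mavacamten, at 12.3, 13.7, 18.6 and 18.5 CPM in R502W control, and at 24.6, 24.9, 16.8, 24.0 and 20.7 CPM in WT control. WT control replicate 3 was the 1 library of its group that reached down into the R502W range. Ier3 fell in R502W control against WT control (log2 fold change -0.49 ± 0.14, edgeR adjusted p = 0.039). The call ended without R502W control replicates 1 or 2 or without WT control replicates 1 or 4, with values from -0.58 to -0.39, and when only the 2 groups entered the fit (edgeR adjusted p = 0.0679). Ier3 is short, with 1131 exonic bases. With each library's length trend removed its value was -0.34 ± 0.12 (edgeR adjusted p = 0.104).

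Mavacamten-treated R502W hearts were then set against untreated R502W hearts. None of the 10 genes passed, none had an unadjusted p under 0.05, and DESeq2 called none. The groups overlapped for each of the 10, while 1.29% of all genes lay wholly higher and 1.58% wholly lower in treated hearts. Over all genes edgeR called 0 of 15000, which is 0.0%, with 525 at an unadjusted p under 0.05, and DESeq2 called 6. All 10 estimates were below 0, with a median log2 fold change of -0.38 against 0.00 over all genes. Most of the 10 genes varied together between libraries (below), so these estimates are not independent readings. Those of Fosb, Jun, Atf3, Ier3 and Nr4a3 changed sign in at least 1 fit that left out 1 library. Nr4a1 had -0.96 ± 0.67, Fos -0.92 ± 0.62, Egr1 -0.77 ± 0.51, Myc -0.48 ± 0.43, Fosb -0.40 ± 0.64, Junb -0.36 ± 0.30, Atf3 -0.29 ± 0.60, Jun -0.09 ± 0.24, Nr4a3 -0.08 ± 0.33 and Ier3 -0.02 ± 0.15 (each ± SE, edgeR adjusted p = 1 for each). The SEs of Nr4a1, Fos, Egr1, Myc, Fosb and Atf3 leave room for a 2-fold difference in level, so the data do not show that treated and untreated hearts were alike. Without R502W mavacamten replicate 1 the estimates became -1.67 for Fos and -1.59 for Egr1, and without R502W control replicate 1 that of Egr1 became -0.32. Fos averaged 11.4 ± 10.7 CPM in R502W mavacamten and 21.8 ± 13.2 CPM in R502W control, Egr1 49.4 ± 44.8 CPM in R502W mavacamten and 84.6 ± 49.2 CPM in R502W control, and Nr4a1 33.1 ± 26.8 CPM in R502W mavacamten and 64.6 ± 52.1 CPM in R502W control (SD, n = 4 each).

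Treated R502W hearts against WT control hearts gave a call for Ier3 alone among the 10, lower in the treated hearts. Of all genes 8.21% were called, 5.93% higher and 2.29% lower. The groups overlapped for each of the 10 genes, while 8.54% of all genes lay wholly higher and 3.79% wholly lower in treated hearts. Ier3 averaged 15.6 ± 1.18 CPM in R502W mavacamten (SD, n = 4) and 22.2 ± 3.44 CPM in WT control (SD, n = 5), and fell by 0.51 ± 0.14 on the log2 scale (edgeR adjusted p = 0.0447). That call ended in 11 of the 13 fits that left out 1 library, all but those without R502W control replicate 1 or WT control replicate 3, with values from -0.59 to -0.48. It ended with the length trend removed too (-0.33 ± 0.12, edgeR adjusted p = 0.14). Fosb had 1.40 ± 0.65 (edgeR adjusted p = 0.192), Fos 1.18 ± 0.61 (edgeR adjusted p = 0.239; 0.41 without R502W mavacamten replicate 1) and Egr1 0.67 ± 0.49 (edgeR adjusted p = 0.41). The 3 comparisons share libraries, so their estimates for a gene are not independent of each other.

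**Figure D2:**
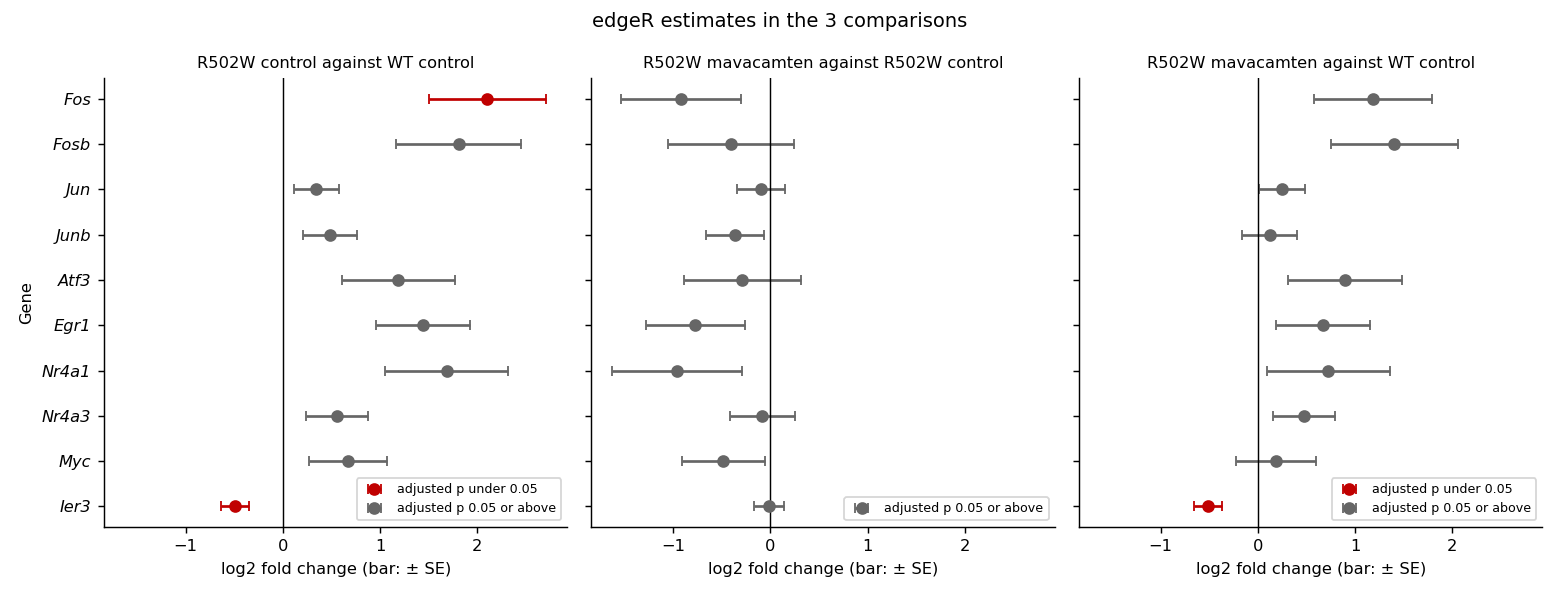
edgeR log2 fold changes (points) with SE (bars) of the 10 genes in the 3 comparisons, coloured by whether the adjusted p was under 0.05. Fos (2.11) and Ier3 (-0.49) are called in R502W control against WT control, none in R502W mavacamten against R502W control, and Ier3 (-0.51) in R502W mavacamten against WT control.

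Most of the 10 genes varied more between R502W hearts of 1 group than between WT control hearts. Within R502W mavacamten the SD of log2 CPM was 1.56 for Fos, 1.55 for Atf3, 1.43 for Nr4a1 and 1.25 for Egr1. Within R502W control it was 1.60 for Fosb, 1.59 for Nr4a1, 1.28 for Fos and 0.85 for Egr1. Within WT control these 5 genes had SDs from 0.17 for Fosb to 0.41 for Atf3. The median SD over the 15000 genes was 0.20 in R502W mavacamten, 0.16 in R502W control and 0.24 in WT control. More than 2 times the WT SD was found for 8 of 10 genes in R502W mavacamten, all but Myc and Ier3, and for 8.29% of all genes. In R502W control this held for 4 of 10, Fos, Fosb, Egr1 and Nr4a1, and for 4.7% of all genes. The WT control SDs of Fosb (0.17) and Nr4a3 (0.11) rest on 8 to 14 and 28 to 37 counts per library. Counting error therefore limits the comparison for these 2 genes. Myc varied about as much in every group, with an SD of 0.70 in R502W mavacamten, 0.59 in R502W control and 0.69 in WT control. These are descriptions of 4, 4 and 5 libraries, with no test.

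**Figure D3:**
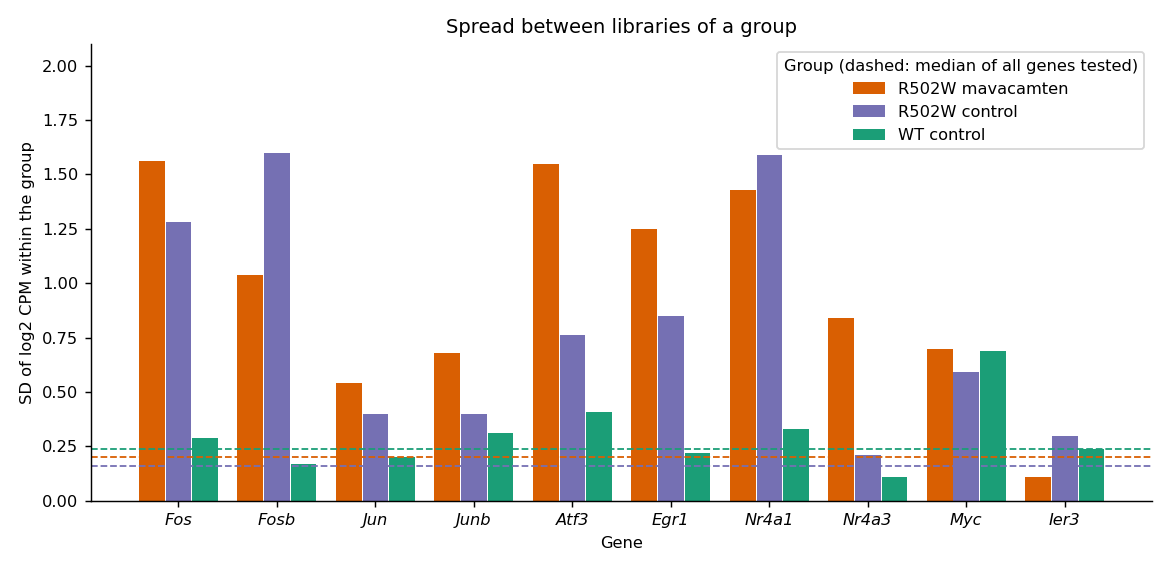
SD of log2 CPM between the libraries of each group for the 10 genes (bars from 0) with the median of all genes tested in the same group (dashed lines). Fos stands at 1.56 in R502W mavacamten and 1.28 in R502W control against 0.29 in WT control.

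The same hearts were high or low across most of the 10 genes. R502W control replicate 1 was the highest of all 13 libraries in 4 genes, Fos, Fosb, Egr1 and Nr4a1. It and R502W control replicate 4 were each among the top 4 libraries in 8 genes, R502W mavacamten replicate 1 in 7 and R502W mavacamten replicate 4 in 5. R502W mavacamten replicate 2 was among the lowest 4 in all 10 genes and R502W mavacamten replicate 3 in 7. WT control libraries lay mostly between, with median ranks from 7.0 to 9.5 of 13. Over the 13 libraries, the 15000 genes tested were ordered by the Pearson correlation of their log2 CPM with that of Fos, as a description with no test, since the libraries share groups. Egr1 (r = 0.92) and Nr4a1 (r = 0.91) held ranks 1 and 2 of 14999 genes, Junb (r = 0.86) at rank 4 and Fosb (r = 0.81) at rank 15. Jun was at rank 43, Atf3 at 58, Nr4a3 at 126, Myc at 1570 (r = 0.41) and Ier3 at 12936 (r = -0.37). Genes outside the set with r from 0.85 to 0.86 included Ppp1r15a (a phosphatase subunit that restores translation after stress), Dusp1 (a phosphatase of MAP kinases), Btg2 (an antiproliferative factor) and Cep164 (a centriole protein).

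**Figure D4:**
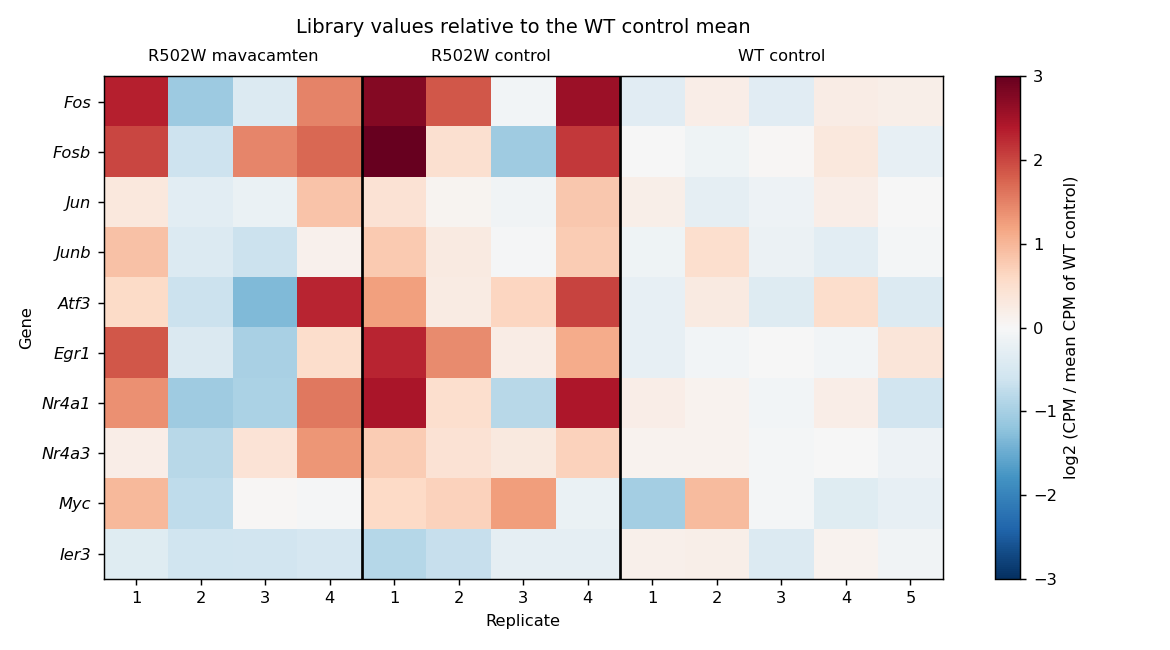
Log2 ratio of each library's CPM to the mean CPM of the WT control libraries, 10 genes by 13 libraries, grouped left to right as R502W mavacamten, R502W control and WT control. R502W control replicates 1 and 4 and R502W mavacamten replicates 1 and 4 are red in Fos, Fosb, Egr1 and Nr4a1, while R502W mavacamten replicate 2 is blue in every row.

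Upstream sequences are shown for Fos and for the 4 genes with an entry whose levels were most like those of Fos, which are Nr4a1, Junb, Fosb and Jun (r = 0.76). RefSeq promoters on GRCm38.p6 were on hand for 8 of the 10 genes; Egr1 and Myc had none. Each run below is the 250 bases before the annotated start, 5′ to 3′ on the gene's strand, with capitals marking TGACG on either strand, the half-site of the cyclic AMP response element to which CREB and ATF proteins bind.
Fos (chr12:85473640-85473889, plus strand): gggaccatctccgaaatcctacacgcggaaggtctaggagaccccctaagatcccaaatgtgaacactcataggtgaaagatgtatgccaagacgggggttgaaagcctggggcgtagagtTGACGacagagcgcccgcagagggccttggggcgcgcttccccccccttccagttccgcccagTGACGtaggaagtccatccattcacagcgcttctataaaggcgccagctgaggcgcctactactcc
Fosb (chr7:19310046-19310295, minus strand): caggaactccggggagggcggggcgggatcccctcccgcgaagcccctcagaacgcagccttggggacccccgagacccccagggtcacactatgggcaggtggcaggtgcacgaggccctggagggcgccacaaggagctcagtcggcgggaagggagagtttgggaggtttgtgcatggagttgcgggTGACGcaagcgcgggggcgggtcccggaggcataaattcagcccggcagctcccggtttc
Jun (chr4:95052223-95052472, minus strand): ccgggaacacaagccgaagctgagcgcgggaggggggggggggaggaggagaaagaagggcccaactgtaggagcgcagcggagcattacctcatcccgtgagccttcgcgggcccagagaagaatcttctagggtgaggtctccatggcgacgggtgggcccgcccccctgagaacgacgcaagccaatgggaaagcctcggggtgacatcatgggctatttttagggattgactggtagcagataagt
Junb (chr8:84978749-84978998, minus strand): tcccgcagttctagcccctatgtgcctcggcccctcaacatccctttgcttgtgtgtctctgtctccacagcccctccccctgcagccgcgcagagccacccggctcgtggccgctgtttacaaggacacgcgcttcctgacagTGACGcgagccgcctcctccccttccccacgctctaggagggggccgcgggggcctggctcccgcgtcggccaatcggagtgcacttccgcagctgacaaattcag
Nr4a1 (chr15:101266596-101266845, plus strand): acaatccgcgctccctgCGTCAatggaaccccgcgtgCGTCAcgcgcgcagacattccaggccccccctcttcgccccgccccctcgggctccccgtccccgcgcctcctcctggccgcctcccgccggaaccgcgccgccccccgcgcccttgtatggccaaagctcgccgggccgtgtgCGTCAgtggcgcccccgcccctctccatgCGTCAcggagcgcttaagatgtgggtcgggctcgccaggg
The half-site occurred once or more in 6 of the 8 windows, 4 times in Nr4a1 and in Nr4a3, 2 times in Fos and once in Fosb, Junb and Atf3, but not in Jun or Ier3. Of the Nr4a3 window, 152 bases lie in annotated exons, and the Nr4a1 window precedes the RefSeq start, which lies inside the longer GENCODE span given above. Of 32851 promoter windows of the same length, 17.8% held it and 0.137% held it 4 times or more. The match nearest to the start began at position -66 in Fos, -60 in Fosb, -106 in Junb and -40 in Nr4a1. The palindrome TGACGTCA (1.55% of windows), the AP-1 site TGANTCA (6.75%) and the CArG box bound by SRF (1.47%) were in none of the 8 windows. The EGR site GCGNGGGCG (4.7% of windows) was found in Fosb and Nr4a1, and TATAAA (12.4%) in Fos. A match is letters only and does not show binding, and sites farther upstream were not searched.

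Per kilobase of exon, Jun had the highest mean of the 10 in R502W mavacamten at 21.4 ± 8.44 CPM per kb (SD, n = 4) and in R502W control at 22.9 ± 6.57 (SD, n = 4). In both groups its libraries overlapped those of Egr1 and Nr4a1, and in R502W mavacamten also those of Ier3 and Junb. In R502W control Egr1 reached 34.0 CPM per kb against 31.5 for Jun. In WT control Ier3 led at 19.6 ± 3.04 CPM per kb and Jun followed at 18.1 ± 2.52 (SD, n = 5), which overlap. Junb, Egr1 and Nr4a1 made a middle group in WT control at 8.17 ± 1.99, 6.93 ± 1.149 and 5.72 ± 1.16 CPM per kb, also overlapping. Atf3 (2.15 ± 0.66), Fos (2.15 ± 0.42) and Myc (1.38 ± 0.762) overlapped below them, and Nr4a3 (0.328 ± 0.0256) and Fosb (0.0951 ± 0.0141) were lowest, each apart from its neighbours. In both R502W groups Fos stood above Atf3 in this order, within their spread. Nr4a3 and Fosb were the lowest pair in every group.

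The wider immediate early pathway was counted over lists of other genes. In R502W control against WT control, 3 of 30 further immediate early genes rose and none fell, with 9 at an unadjusted p under 0.05 and 4 called higher by DESeq2. Of all genes 8.63% were called higher and 3.75% lower, so the share in this list was near that of all genes. Ccn1, a secreted matricellular protein, stood at 82.0 ± 9.68 CPM in R502W control (SD, n = 4) and 38.4 ± 5.36 CPM in WT control (SD, n = 5). It rose by 1.10 ± 0.17 on the log2 scale, with an edgeR adjusted p of 0.00173. Hbegf, a ligand of the EGF receptor, rose by 0.75 ± 0.11 (edgeR adjusted p = 0.0013) and Zfp36l1, which destabilises AU-rich RNAs, by 0.54 ± 0.10 (edgeR adjusted p = 0.00408). These 3 genes kept their calls whichever library was left out, and their groups did not overlap.

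Of the EGR, NR4A and KLF relatives 2 of 9 tested rose in R502W control, where 8.63% of all genes were called higher and 3.75% lower. Egr2 was at 2.08, 1.42, 1.27 and 1.78 CPM in R502W mavacamten, at 3.59, 2.00, 2.87 and 2.64 CPM in R502W control and from 0.441 to 1.5 CPM in WT control. R502W control and WT control libraries did not overlap (log2 fold change 1.47 ± 0.32, edgeR adjusted p = 0.0109), and no single library decided the call. It ended with the replicate number added to the fit as a block. WT control values of Egr2 rested on 7 to 25 counts per library. Against R502W control, the treated hearts had an Egr2 log2 fold change of -0.75 ± 0.33 (edgeR adjusted p = 1). Egr3 rose by 1.42 ± 0.44 (edgeR adjusted p = 0.0481). Leaving out 1 library ended this in 12 of 13 fits, all but the one lacking R502W mavacamten replicate 1. Values there ran from 0.94 to 1.63. Of 10 tested AP-1 and ATF relatives only Mafk rose (0.40 ± 0.12, edgeR adjusted p = 0.0455), a call lost in all 13 such fits, with values from 0.33 to 0.42.

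Of 25 upstream kinases and factors 5 rose and 1 fell in R502W control against WT control, where 8.63% of all genes were called higher and 3.75% lower. Srf, the serum response factor that drives many of these promoters, stood at 110 ± 6.16 CPM in R502W control and 77.97 ± 3.55 CPM in WT control, without overlap, and rose by 0.50 ± 0.08 (edgeR adjusted p = 0.00226). Elk3, an ETS partner of SRF, rose by 0.52 ± 0.11 (edgeR adjusted p = 0.00826), a call lost without the 3 libraries carrying RNA of other tissues, and the kinase gene Rps6ka3 by 0.53 ± 0.11 (edgeR adjusted p = 0.00995), lost without R502W control replicate 2 (values from 0.40 to 0.58). The calls of Creb1 (0.37 ± 0.07) and of Mapk3, which encodes ERK1 (-0.36 ± 0.08), ended with the length trend removed, at 0.05 and -0.25, and that of Mapk3 also without R502W control replicate 1. Mrtfb, a coactivator of SRF, rose by 0.50 ± 0.14 (edgeR adjusted p = 0.0339), a result lost with the length trend removed (0.32, edgeR adjusted p = 0.0672) and in 8 of 13 fits with 1 library left out (values from 0.35 to 0.57), those without R502W mavacamten replicates 1, 2 or 3, R502W control replicates 1, 2 or 3 or WT control replicates 1 or 3. Among 11 tested MYC partners Mga rose (0.64 ± 0.16, edgeR adjusted p = 0.0194) and Max, the dimer partner of MYC, fell (-0.40 ± 0.12, edgeR adjusted p = 0.0412). Mga was no longer called once R502W control replicate 1 or 2 was dropped (values from 0.47 to 0.72), and its value was 0.31 with the length trend removed (edgeR adjusted p = 0.0475), and Max in 7 of the 13 fits with 1 library left out (values from -0.47 to -0.36) and with the length trend removed. Of 15 MYC targets Ddx21, a nucleolar helicase, rose (0.46 ± 0.07, edgeR adjusted p = 0.00142).

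Treated R502W hearts against WT control gave calls in the same lists. Of all genes 5.93% were called higher and 2.29% lower. Of the 30 further immediate early genes 4 rose, with 7 at an unadjusted p under 0.05 and 5 called higher by DESeq2. Hbegf (0.60 ± 0.11, edgeR adjusted p = 0.00906) and Zfp36l1 (0.51 ± 0.10, edgeR adjusted p = 0.011) kept their calls with any 1 library left out, but both lost them when only the 2 groups entered the fit. Ccn1 (0.69 ± 0.17, edgeR adjusted p = 0.0289, values from 0.40 to 0.77) lost it in 5 of 13 fits, those without R502W mavacamten replicates 1 or 2, R502W control replicate 2 or WT control replicates 1 or 3. Phlda1 (0.88 ± 0.23, edgeR adjusted p = 0.0323, values from 0.68 to 1.05) lost it in 7, those without R502W mavacamten replicates 2, 3 or 4 or WT control replicates 2, 3, 4 or 5. Of the EGR, NR4A and KLF relatives edgeR and DESeq2 called none of 9, with 1 at an unadjusted p under 0.05. Of the AP-1 and ATF relatives 1 of 10 rose (Mafg, lost in 12 of 13 fits), of the upstream list 4 of 25 rose and 1 fell, of MYC partners 1 rose and 1 fell, and of MYC targets 1 rose. The call of Mga (0.57) ended in 11 of 13 fits with 1 library left out, all but those without WT control replicates 2 or 4, and its value was 0.25 with the length trend removed. That of Creb1 (0.29) ended in 6 such fits, those without any 1 of the R502W mavacamten replicates, R502W control replicate 2 or WT control replicate 2, and its value was -0.02 with the length trend removed. The call of Elk3 ended in 7 such fits, those without R502W mavacamten replicates 1, 2 or 3, R502W control replicate 2 or WT control replicates 1, 2 or 3, with values from 0.34 to 0.51. Those of Srf (without R502W mavacamten replicates 1, 2 or 3, values from 0.28 to 0.39) and Rps6ka3 (without R502W mavacamten replicates 2, 3 or 4, values from 0.37 to 0.53) ended in 3 each, and that of Max in 2 (without R502W mavacamten replicates 2 or 3, values from -0.67 to -0.47). When only the 2 groups entered the fit, the calls of Ccn1, Phlda1, Mafg, Mga, Creb1, Elk3, Srf, Rps6ka3 and Max ended too. The calls of Mapk3 and Ddx21 held there. Without the 3 libraries carrying RNA of other tissues, those of Ccn1, Mafg, Creb1, Elk3, Srf and Max ended. In treated against untreated R502W hearts edgeR and DESeq2 called none of the genes on these 6 lists, with 5 at an unadjusted p under 0.05.

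Markers of other cell types also varied between libraries. The 4 adipocyte markers summed to 194, 7.72, 10.3 and 581 CPM in R502W mavacamten replicates 1 to 4, to 390, 78.3, 4.5 and 102 CPM in R502W control replicates 1 to 4, and to 16.8, 605, 620, 175 and 127 CPM in WT control replicates 1 to 5. Among the R502W libraries the 3 lowest in Fos, R502W mavacamten replicates 2 and 3 and R502W control replicate 3, were also the 3 lowest in adipocyte markers. In WT control, replicates 2 and 3 had the highest adipocyte sums of the series with 5.76 and 3.98 CPM of Fos. The same 3 R502W libraries had the highest cardiomyocyte sums, 63900, 62500 and 56600 CPM, against 45400 to 51300 CPM in the other 5. WT control libraries had cardiomyocyte sums of 33300 to 48000 CPM, with 3.96 to 5.88 CPM of Fos. The 4 smooth muscle markers summed to 300, 181, 169 and 675 CPM in R502W mavacamten replicates 1 to 4 and to 384, 317, 143 and 169 CPM in R502W control replicates 1 to 4, and to 201 to 544 CPM in WT control. R502W control replicate 4, second highest in Fos, was among the lowest in this sum. The atrial gene Bmp10 was at 1.57 CPM in R502W control replicate 1, the library highest in Fos. It was at 6.23 CPM in R502W mavacamten replicate 3 and 8.33 CPM in WT control replicate 3, against 307 to 672 CPM in all other libraries. Another atrial gene, Myl7, was at 612, 434 and 1243 CPM in these libraries and at 287 to 1064 CPM in the others. The part of tissue makeup in the levels of the 10 genes was not tested.

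**Figure D5:**
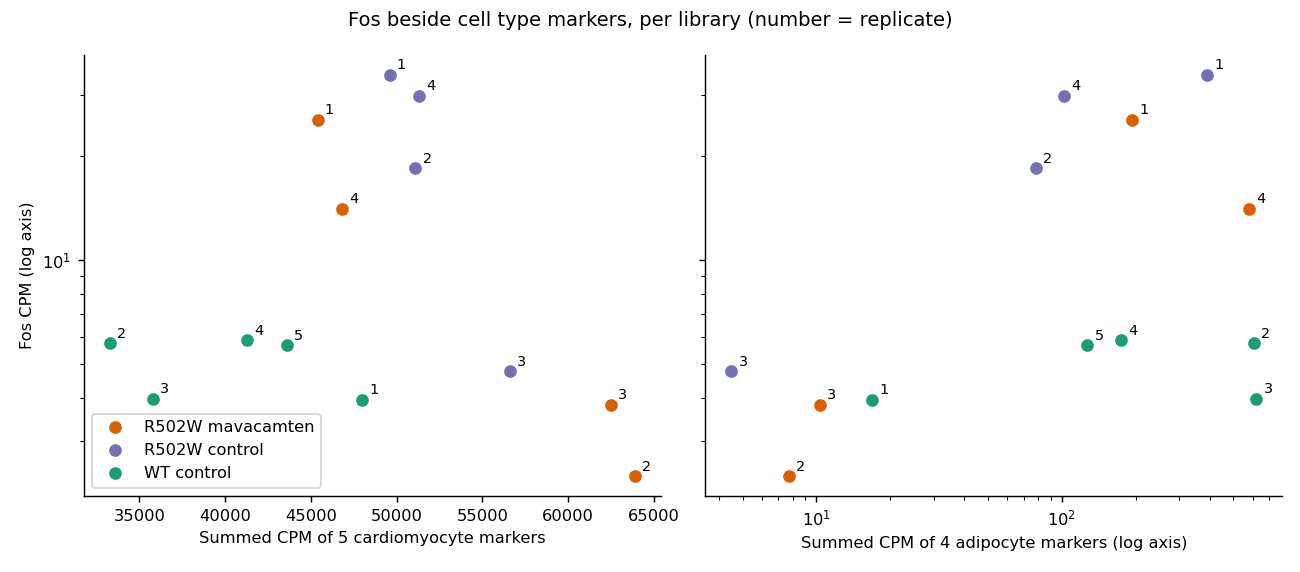
Fos CPM (log axis) of each library against the summed CPM of 5 cardiomyocyte markers (left, linear axis not starting at 0) and of 4 adipocyte markers (right, log axis), coloured by group and numbered by replicate. The 3 R502W libraries under 5 CPM of Fos have the highest cardiomyocyte and the lowest adipocyte sums of their genotype. WT control libraries stay between 3.96 and 5.88 CPM of Fos, with cardiomyocyte sums of 33300 to 48000 CPM and adipocyte sums of 16.8 to 620 CPM.

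Endothelial markers (5 genes) summed to 551 to 764 CPM in R502W mavacamten, 723 to 855 in R502W control and 472 to 634 in WT control, macrophage markers (5 genes) to 111 to 152 CPM in R502W mavacamten, 131 to 175 in R502W control and 129 to 184 in WT control, and fibroblast markers (5 genes) to 798 to 1010 CPM in R502W mavacamten, 915 to 1090 in R502W control and 797 to 1080 in WT control. Neutrophil markers were at most 9.4 CPM in sum, with Ly6g under 1 CPM in every library. All 9 clock genes listed were called in each comparison with WT control, 2 higher and 7 lower. Of all genes 12.4% were called in R502W control and 8.21% in treated hearts. The clock list was chosen with earlier results of these data known. Dbp stood between 30.7 and 52.7 CPM in R502W mavacamten, 32.5 and 58.2 CPM in R502W control and 153 and 204 CPM in WT control. Of 6 inducible heat shock genes 3 rose in R502W control against WT control and 1 in treated hearts against WT control, where 8.63% and 5.93% of all genes were called higher. The hour of collection is not known here, and the part of clock phase or of heart handling in the levels of the 10 genes was not tested.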

How the data were processed

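Whole hearts were homogenised and their poly(A) RNA made into strand-specific libraries, per the labels' protocols. The authors deposited expected counts per Ensembl gene from RSEM on GRCm38; the submitters' processing notes also named cutadapt, FastQC and DESeq2. No source used here gave the aligner or the strand setting of counting. Symbols and coordinates came from GENCODE M21 (GRCm38) and matched 55230 of 55471 IDs. Columns were matched to samples by library name. The 22 pairs of libraries within groups differed by 7.74 to 112.41 chi-square per degree of freedom, so none was counted as a duplicate.

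Counts were rounded, and edgeR 4.0.16 was run in R 4.3.3 (filterByExpr, minimum count 10 and minimum total 15, TMM, quasi-likelihood test, 1 mean per group over all 13 libraries). P-values were adjusted by Benjamini-Hochberg over 15000 genes, with 0.05 as the threshold. The biological coefficient of variation was 0.232. SEs were derived from the fold change and its p. DESeq2 1.42.0 and the other alternatives are given in the closing section. Depth limits the precision of the scarcest genes, and CPM carry counting error as well as the spread between hearts.

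The 10 genes and the gene lists were chosen with earlier results of these data known. The text names all 10, up to 4 called genes of each list with the smallest p, and the 5 genes most like Fos, of which 1 is not reported here. Other genes, among them Mapk3, Mrtfb, Per1 and Hspa1a, were chosen after their values were seen. Equal sample numbers did not mark related libraries (closing section).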

Additional observations from a re-analysis of the deposited data

Results flagged for a closer look

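Junb in WT control replicate 2 stood at 26.8 CPM, far from the 15.1 to 18.2 CPM of the other 4 WT control libraries. It was the 1 value set apart among 30 combinations of gene and group examined by the gap between a library and its nearest neighbour, and chance alone sets apart about 1 in 20. This library also held 94.0 CPM of Rag1 and 246 CPM of Scgb1a1, and was the WT control library highest in Myc (7.26 CPM). The part of RNA from other tissues in its Junb level was not tested. Without it the log2 fold change of Junb in R502W control against WT control was 0.61 (edgeR adjusted p = 0.186), against 0.48 with it.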

How the results depend on the processing

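In R502W control against WT control, the number of the 10 genes called higher (1) was 2 with DESeq2 and with only the 2 groups in the fit, and 0 with the replicate block and without the libraries above 50 CPM of Rag1 or Scgb1a1, a setting chosen after seeing the data. The number called lower (1) was 0 with the length trend removed, with the replicate block and with only the 2 groups. With 1 library left out these numbers ran from 0 to 2 and from 0 to 1. All genes called (1856) became 963 with the replicate block and ran from 866 to 1870 with 1 library left out, with 1040, 866 and 914 without R502W control replicates 1, 2 and 3. In R502W mavacamten against R502W control, 0 genes were called except by DESeq2 (6) and without the libraries with other tissues' RNA (7), also with any 1 library left out. In R502W mavacamten against WT control the number called lower (1) was 0 without the count filter, with the length trend removed, with the replicate block and with only the 2 groups, and 0 to 1 with 1 library left out. All genes called there (1232) became 740, 632, 349 and 216 under those settings and 614 without the 3 libraries, and 359 to 1213 with 1 left out, with 681, 359, 462 and 692 without R502W mavacamten replicates 1 to 4, 716 without R502W control replicate 2 and 688 without WT control replicate 3.

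Some uncalled estimates changed sign. Treated against untreated, Ier3 (-0.02) was 0.01 with the length trend removed and Nr4a3 (-0.08) was 0.01 without the 3 libraries. With 1 library left out Fosb ran from -0.77 to 0.35, Jun from -0.38 to 0.10, Atf3 from -1.43 to 0.15, Ier3 from -0.12 to 0.07 and Nr4a3 from -0.54 to 0.19. Treated against WT control, Junb (0.12) and Egr1 (0.67) were -0.13 and -0.21 without the 3 libraries. With 1 left out Jun ran from -0.07 to 0.38, Junb from -0.30 to 0.29, Egr1 from -0.18 to 0.95, Atf3 from -0.27 to 1.22, Myc from -0.25 to 0.54 and Nr4a3 from -0.01 to 0.72. The causes were not tested. RLE scaling moved no count of calls among the 10 genes and shifted the median of all genes by at most 0.02 in size. Equal sample numbers did not mark related libraries. Of 12 cross-group pairs with equal numbers 1 had a correlation of deviations over 0.1 (range -0.32 to 0.25), against 14 of 44 pairs with unequal numbers. The check covers sample numbers only, not other batches or litters, which the labels do not give. Whether the block result reflects a weaker effect cannot be told from it. Under the block the values for Fos and Ier3 in R502W control against WT control were 1.80 (edgeR adjusted p = 0.0739) and -0.52 (edgeR adjusted p = 0.0986).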

Other observations

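Batf2, an interferon-inducible AP-1 relative, stood at 23.5 CPM in R502W mavacamten replicate 4 and at no more than 1.35 CPM elsewhere. Fosl1, Batf3, Egr4 and Mxd3 of the lists did not pass the filter on low counts. Phlda1 of the further immediate early list stood at 17.3, 41.8, 32.6 and 32.4 CPM in R502W mavacamten replicates 1 to 4 and between 15.9 and 23.1 CPM in R502W control, a log2 fold change of 0.62 ± 0.24 that was not called (edgeR adjusted p = 1).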
